A study of Mus musculus with 16 samples.

Results

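The Hox genes were analysed as their 4 clusters, Hoxa on chromosome 6, Hoxb on chromosome 11, Hoxc on chromosome 15 and Hoxd on chromosome 2. The set held 38 genes of the 22218 protein-coding genes in the annotation: 10 of Hoxa, 10 of Hoxb, 9 of Hoxc and 9 of Hoxd. The peaks at these members were those that overlapped a member gene or lay within 5 kb of one, 28 of 4992 Jarid2 peaks and 60 of 4502 Jarid2-K116me2 peaks. Coverage and gaps were measured over the span of a cluster, from the first to the last base of its members in mm9: chr6:52112350-52210874 for Hoxa, chr11:96055630-96229570 for Hoxb, chr15:102751534-102867274 for Hoxc and chr2:74506367-74603200 for Hoxd.

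Peaks of total Jarid2 and of Jarid2 dimethylated at K116 (Jarid2-K116me2) came from E14, a line of mouse ESC grown in serum with LIF, with 1 ChIP sample per antibody, so these values have no replicate error. Peaks of H3K27me3 came from 12 further samples, 2 for each of 3 genotypes at 2 stages, namely Jarid2 -/- cells (KO), Jarid2 -/- cells rescued with a Jarid2 BAC (WT), and Jarid2 -/- cells rescued with a Jarid2K116A BAC (K116A), either as ESC in serum with LIF or as embryoid bodies (EB) made by hanging drop without LIF for 8 days. The KO line and both rescues thus share the Jarid2 deletion. The rescues carry a BAC transgene integrated through a transposon, and E14 is not their parental control. The H3K27me3 replicates are biological duplicates per the study, and whether a rescue was 1 clone is not given in the sources used here. The deletion itself could not be checked from peak lists.

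Hox genes encode homeodomain transcription factors that give cells their position along the body axis, and their order in a cluster follows the order in which they are used from head to tail. In ESC the clusters are silent and are classic targets of the Polycomb complex PRC2, which methylates histone H3 at lysine 27. Jarid2 is a subunit of PRC2 that binds DNA and nucleosomes and is itself methylated by PRC2 at K116. CpG-rich DNA is known as the ground on which PRC2 assembles in mammals, and the sequences below show how it is distributed in the clusters.

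Stretches of 150 bases are shown from NCBIM37, the Ensembl name of mm9, with each CG in capitals. The first set is, for Hoxa, Hoxb and Hoxd, the sequence before the start of the member that had most CpG there, among starts without an annotated exon in the window. It is Hoxa5 at chr6:52154587-52154736 on the minus strand, Hoxb13 at chr11:96055480-96055629 and Hoxd13 at chr2:74506217-74506366, all on the plus strand but the first. Each lay upstream of its own gene, and that of Hoxa5 also lay in introns of longer annotated transcripts.
Hoxa5: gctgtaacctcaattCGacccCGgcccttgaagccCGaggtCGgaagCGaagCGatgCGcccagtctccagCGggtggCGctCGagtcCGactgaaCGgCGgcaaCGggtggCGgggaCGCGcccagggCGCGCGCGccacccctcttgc
Hoxb13: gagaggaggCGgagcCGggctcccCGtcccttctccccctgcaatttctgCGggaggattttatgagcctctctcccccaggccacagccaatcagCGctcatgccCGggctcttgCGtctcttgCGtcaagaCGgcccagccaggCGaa
Hoxd13: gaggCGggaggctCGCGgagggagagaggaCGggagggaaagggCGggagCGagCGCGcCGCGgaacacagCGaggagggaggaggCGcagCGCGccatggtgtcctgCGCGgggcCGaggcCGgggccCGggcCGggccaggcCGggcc
They held 21, 10 and 21 CpG, and all 3 starts lay under a peak of both antibodies.

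The second set is the middle of the largest stretch of each cluster without a Jarid2 peak, on the plus strand, moved away from exons where needed. It was taken at chr6:52132453-52132602 in an intron of Hoxa3, at chr11:96089862-96090011 in the intergenic DNA between Hoxb13 and Hoxb9, at chr15:102853070-102853219 in an intron of Hoxc4, and at chr2:74595805-74595954 in an intron of the noncoding gene 6720416L17Rik between Hoxd3 and Hoxd1. The last one, at chr2:74558243-74558392 in an intron of the long Hoxd3 transcript, is from the only stretch of Hoxd that had no H3K27me3 peak in any of the 12 libraries.
Hoxa gap: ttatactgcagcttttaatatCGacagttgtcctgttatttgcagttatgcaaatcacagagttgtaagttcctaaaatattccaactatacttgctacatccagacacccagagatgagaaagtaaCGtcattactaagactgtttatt
Hoxb gap: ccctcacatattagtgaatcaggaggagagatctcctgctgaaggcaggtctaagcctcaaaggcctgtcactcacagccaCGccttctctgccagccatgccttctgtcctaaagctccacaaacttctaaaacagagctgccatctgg
Hoxc gap: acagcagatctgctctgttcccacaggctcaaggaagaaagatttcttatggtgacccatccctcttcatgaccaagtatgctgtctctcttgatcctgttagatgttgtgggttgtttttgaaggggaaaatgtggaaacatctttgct
Hoxd gap: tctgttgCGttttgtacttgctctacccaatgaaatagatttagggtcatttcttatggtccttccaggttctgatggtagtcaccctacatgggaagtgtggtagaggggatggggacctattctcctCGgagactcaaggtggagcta
Hoxd8-Hoxd4: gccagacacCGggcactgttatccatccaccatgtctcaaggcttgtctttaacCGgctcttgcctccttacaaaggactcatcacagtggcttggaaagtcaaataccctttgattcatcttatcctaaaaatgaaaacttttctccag
These held 2, 1, 0, 2 and 2 CpG. The first set was chosen for its CpG and is shown as the rich end of the range, since some member starts under both antibodies were as poor as the gaps.

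Whole clusters were compared without such a choice. The DNA under Jarid2 peaks had 31.2 CpG per kb in Hoxa, 26.5 in Hoxb, 22.3 in Hoxc and 31.3 in Hoxd, whereas the DNA of the same spans outside Jarid2 peaks had 11.3, 10.8, 7.54 and 7.89 CpG per kb. Over the 4 clusters the CpG frequency relative to that predicted from the C and G content was 0.437 under Jarid2 peaks and 0.197 outside, and the GC content was 50.1% and 45.4%. The bases under Jarid2 peaks but outside Jarid2-K116me2 peaks resembled the gaps, with 10.7 CpG per kb over 51.87 kb. The 345.02 kb under Jarid2-K116me2 peaks had 29.9. Hoxa showed the widest contrast, 5.96 against 34.2 CpG per kb, and Hoxb the narrowest in proportion, 14.5 against 28.7.

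**Figure D1:**
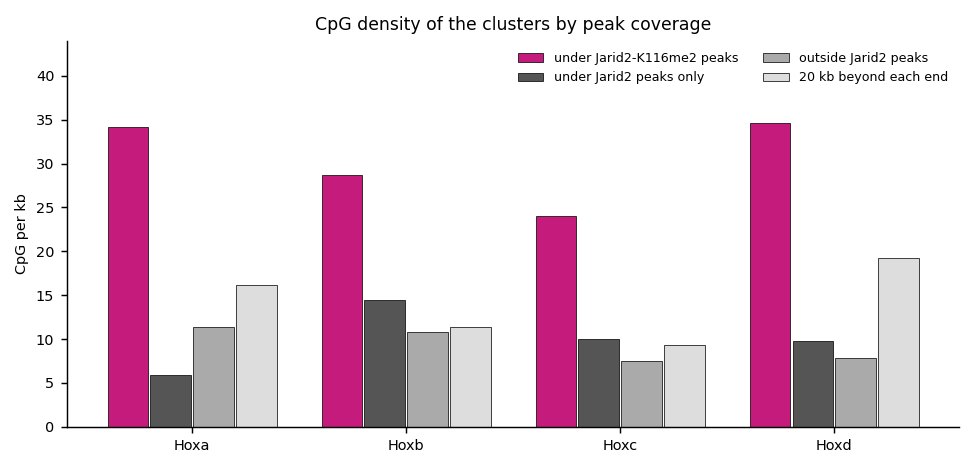
CpG per kb (vertical axis) in each cluster for the DNA under Jarid2-K116me2 peaks, under Jarid2 peaks only, outside Jarid2 peaks, and in the 20 kb beyond each end of the span. The DNA under Jarid2-K116me2 is the most CpG-dense class in all 4 clusters, from 24.0 in Hoxc to 34.7 in Hoxd; the flanks include bases under Jarid2 peaks that run past the span.

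At the same time, Hox peaks were poorer in CpG than the other peaks of their lists. The median Jarid2 peak at the members had 23.6 CpG per kb against 45.0 over the 4964 other Jarid2 peaks, and the median Jarid2-K116me2 peak 28.7 against 51.4 over 4442 other peaks. Among peaks wider than 10 kb the medians for Jarid2 were 27.3 over 10 Hox peaks and 32.8 over 148 others. Among narrower peaks they were 21.2 over 18 Hox peaks and 45.4 over 4816 others, so Hox peaks were lower in both width classes. The promoters of the members, from 250 bases before to 50 after the start, ranged from 6.67 CpG per kb at Hoxa2 and Hoxd3 to 150 at Hoxa13. Their median of 55 lay above that of all protein-coding genes, 36.7, and below that of the other genes whose start was under a Jarid2 peak, 76.7.

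All 38 members had a Jarid2 peak within 5 kb, where 18.1% of all protein-coding genes had one. Likewise all 38 members had a Jarid2-K116me2 peak within 5 kb, against 16% of all protein-coding genes. Within 1 kb of the transcription start site (TSS) both counts were again 38 of 38, while the shares of all protein-coding genes fell to 13.4% for Jarid2 and 11.9% for Jarid2-K116me2. The TSS used was the annotated start nearest upstream of the longest coding sequence, and it lay directly under a peak of both antibodies for each member. Thus no member was without a peak, and the clusters are compared below by how continuous the coverage was.

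Of the whole 485.041 kb of the 4 spans, Jarid2 peaks covered 81.8% and Jarid2-K116me2 peaks 71.1%. Hoxc and Hoxa were the most covered, with 94.6% and 93.5% under Jarid2 peaks and 82.6% and 83.6% under Jarid2-K116me2 peaks. Hoxd followed with 86.1% and 74.5%. Hoxb was the least covered, with 64.3% and 54.6%, and its span includes the long interval that separates Hoxb13 from the other members. Without Hoxb13 in the span of Hoxb, the 4 clusters together were covered to 92.4% and 81.6%.

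**Figure D2:**
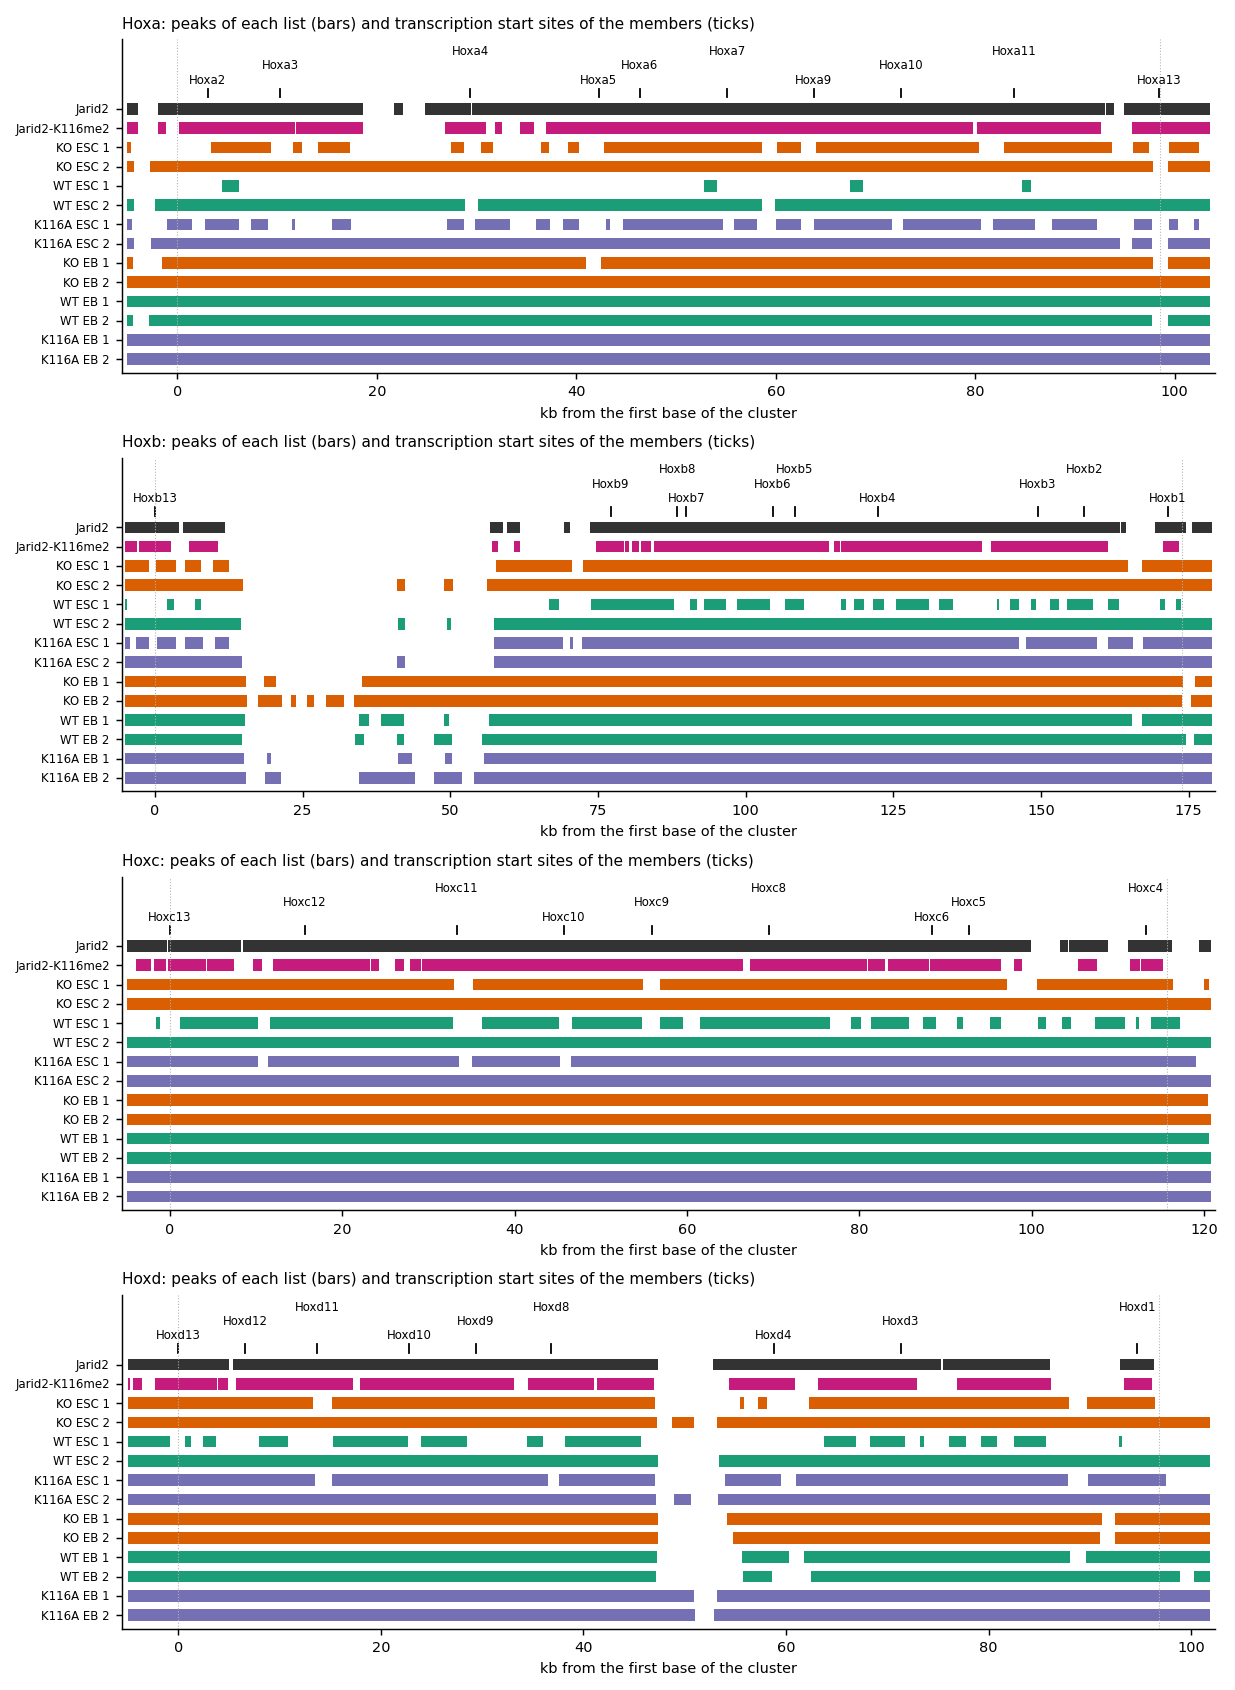
Peaks of each list along the 4 clusters, in kb from the first base of the cluster, with the 14 lists as rows (Jarid2, Jarid2-K116me2, then the 12 H3K27me3 libraries named by genotype, stage and replicate) and the TSS of the members as ticks; dotted lines mark the ends of the span. No member TSS falls in a gap of the 2 upper rows, and the WT ESC replicate 1 row is broken in all 4 clusters.

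The widest Jarid2 peaks of the genome were at Hox genes. In Hoxc, 1 peak of 91396 bp ran from Hoxc12 to Hoxc5 (chr15:102760036-102851431) over 7 member TSS, and it was the widest of all 4992. In Hoxb, 1 peak of 89797 bp (chr11:96129195-96218991) ranked 2 and held the TSS of 8 members, Hoxb2 to Hoxb9. In Hoxa, a peak of 63534 bp (chr6:52141855-52205388) ranked 3 and held 6, Hoxa5 to Hoxa11. In Hoxd, a peak of 41995 bp (chr2:74511781-74553775) ranked 6 and held 5, Hoxd8 to Hoxd12. The widest Jarid2 peak away from the members had 63318 bp, so that 3 Hox peaks were wider than any other. Of the 10 Jarid2 peaks over 30 kb, 4 were at these clusters.

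The widest peaks were not those of the highest score. The score of the peak caller, minus the log10 of the p-value multiplied by 10, piled up at 3100, where 719 of all Jarid2 peaks and 13 of the 28 at the members stood. The widest peaks of Hoxc, Hoxb and Hoxa had scores of 1683, 2021 and 746, all under this value, and that of Hoxd was at it. Scores of wide peaks were therefore not used to rank the clusters.

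**Figure D3:**
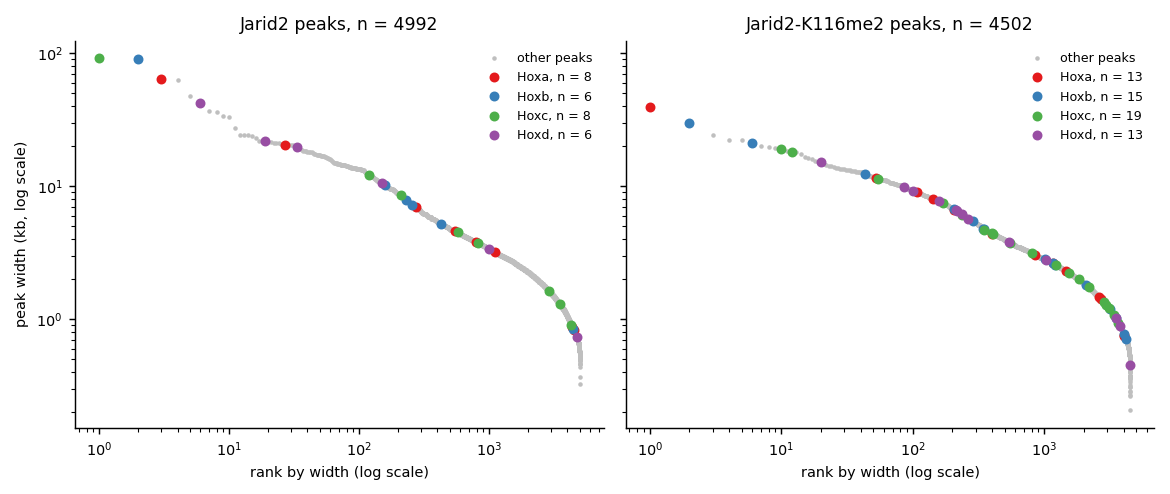
Width in kb of every peak against its rank by width in the list, both on log scales, for Jarid2 (left) and Jarid2-K116me2 (right), with the peaks at the members coloured by cluster. Each cluster holds a Jarid2 peak among the 6 widest, the largest at 91396 bp, whereas the widest Jarid2-K116me2 peak has 39675 bp.

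Other homeobox families that are Polycomb targets in ESC were measured for comparison. The 6 Iroquois genes, which pattern neural tissue and heart in 2 gene clusters, had 11 Jarid2 peaks with a median of 5210 bp and a maximum of 17730 bp. The 6 Dlx genes, which act in forebrain, face and limb and lie in pairs, had 6 with a median of 10190.5 bp and a maximum of 21821 bp. The 28 at Hox genes had a median of 6078.5 bp, between the 2 families, and a maximum of 91396 bp. The Hox clusters thus combined peaks wider than any in these families with many narrow ones. All 6 genes of each family had a peak of both antibodies within 5 kb and within 1 kb of the TSS, as did every Hox member.

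In the Jarid2-K116me2 list the same territory was called in more pieces. Hoxa had 8 Jarid2 and 13 Jarid2-K116me2 peaks, Hoxb 6 and 15, Hoxc 8 and 19, and Hoxd 6 and 13. All 60 Jarid2-K116me2 peaks at the members overlapped a Jarid2 peak by at least 1 bp, and 99.96% of the span bases under Jarid2-K116me2 were also under Jarid2. Conversely, 22 of 28 Jarid2 peaks (78.6%) overlapped a Jarid2-K116me2 peak, close to the 79.1% of the 4964 other Jarid2 peaks. Of the Jarid2-covered bases, 86.9% were under both. The 6 Jarid2 peaks without Jarid2-K116me2 were narrow, 731 to 1615 bp, with scores of 65.3 to 169.8, while the other 22 had a median of 8215.5 bp and scores from 275.6 to 3100. None of the 6 held a member TSS. Per the study, the enrichments of both antibodies correlated very well at common peaks, and the Jarid2 library had more reads. The study holds that peaks seemingly specific to either list most likely reflect sequencing depth and background estimation. The part of these in the number of pieces was not tested.

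The widest Jarid2 peak of Hoxc contained 14 separate Jarid2-K116me2 peaks, that of Hoxb 11, that of Hoxa 7 and that of Hoxd 5. More than 1 Jarid2-K116me2 peak was found in 10 of 28 Jarid2 peaks at the members (35.7%) and in 353 of 4964 other Jarid2 peaks (7.11%). Wide peaks were more often divided everywhere. Among those over 10 kb, the counts were 9 of 10 at the members and 101 of 148 elsewhere (68.2%). The longest Jarid2-K116me2 peaks were 39675 bp over Hoxa5, Hoxa6, Hoxa7, Hoxa9 and Hoxa10 and 29626 bp over Hoxb5 to Hoxb8, the widest and the next widest of that list, so the order of the clusters differed between the antibodies. In Hoxc the longest was 19169 bp over Hoxc10 and Hoxc11, rank 10, and in Hoxd 15199 bp over Hoxd9 and Hoxd10, rank 20.

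In Hoxa, the longest breaks lay between Hoxa3 and Hoxa4, and shorter ones before Hoxa13. Hoxa2, which sets the identity of the branchial arch next to the jaw, and the body of Hoxa3, required for thymus and parathyroid, shared a Jarid2 peak of 20543 bp. Between it and Hoxa4 lay the largest gap of the cluster, 3078 bp (chr6:52130990-52134067), followed by another of 2260 bp. Over this interval no Jarid2-K116me2 peak was called for 8246 bp. The annotated Hoxa3 gene spans both, and 89.2% of its length was under Jarid2 and 75.3% under Jarid2-K116me2. From Hoxa5, needed for lung and neck vertebrae, to Hoxa11, needed for the forearm and uterus, 1 Jarid2 peak ran on, with Hoxa6, Hoxa7, Hoxa9 (a regulator of blood progenitors) and Hoxa10 (uterus) all covered to 100%. Hoxa13, which shapes digits and the genital tract, had a Jarid2 peak of its own of 3806 bp. Before it lay a Jarid2 gap of 993 bp and a Jarid2-K116me2 gap of 3143 bp, and Jarid2-K116me2 covered 88.0% of Hoxa13 and 89.7% of Hoxa11.

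Hoxb held the largest gap of all, 44890 bp (chr11:96067493-96112382), between Hoxb13, active in the tail and prostate, and Hoxb9, active in the thorax. Hoxb13 stood apart under a peak of 10215 bp. A further 4 Jarid2 peaks of 798 to 2118 bp lay between the gap and Hoxb9, more than 5 kb from any member. The next largest gap of each list, 7454 bp in that of Jarid2 (chr11:96117475-96124928) and 12885 bp in that of Jarid2-K116me2, also lay before Hoxb9. At the other end, Hoxb1, which specifies rhombomere identity in the hindbrain, had its own Jarid2 peak of 5225 bp, with a gap of 4850 bp towards Hoxb2 in the Jarid2 list and of 9378 bp in the Jarid2-K116me2 list. The 8 members in between, among them Hoxb4, known from blood stem cells, and Hoxb8, known from myeloid cells, were covered to 100% by Jarid2. Jarid2-K116me2 covered 100% of Hoxb4, Hoxb5, Hoxb6, Hoxb7 and Hoxb8, 98.1% of Hoxb2, 93.5% of Hoxb3 and 83.2% of Hoxb9.

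In Hoxc, which lacks the anterior paralogues, 7 members from Hoxc12 to Hoxc5 were fully under the 91396 bp peak. They include Hoxc8, Hoxc9 and Hoxc10, which sort motor neurons at brachial, thoracic and lumbar levels. Hoxc13, needed for hair and nails, lay under a separate peak of 8527 bp. Hoxc4 was the least covered member of the 38, 66.5% under Jarid2 and 38.6% under Jarid2-K116me2. Its annotated gene runs across both largest Jarid2 gaps of the cluster, 3427 bp (chr15:102851432-102854858) and 2376 bp, whereas its TSS used here was covered by a Jarid2 peak of 3726 bp and a Jarid2-K116me2 peak of 2544 bp.

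In Hoxd, the posterior members that shape digits and forearm, Hoxd13, Hoxd12 and Hoxd11, and those next to them, Hoxd10, Hoxd9 and Hoxd8, were covered to 100% by 2 Jarid2 peaks of 19594 and 41995 bp. The first of these ran 14582 bp beyond Hoxd13 towards Evx2. A gap of 5403 bp (chr2:74553776-74559178) separated Hoxd8 from Hoxd4, and a gap of 6822 bp (chr2:74592470-74599291) separated Hoxd3 from Hoxd1. Hoxd1, which acts in pain-sensing neurons, kept an isolated Jarid2 peak of 3360 bp that covered 74.6% of the gene. Hoxd3, needed for the first neck vertebrae, was covered to 84.4% by Jarid2 and 62.6% by Jarid2-K116me2, since its long transcript crosses the gap before Hoxd4. The largest Jarid2 gap of each cluster thus lay in or beside Hoxa3, Hoxc4 or Hoxd1, or between Hoxb13 and Hoxb9.

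The spans also hold 24 annotated noncoding genes, of which 21 overlapped a Jarid2 peak and 22 a Jarid2-K116me2 peak, in spans that were themselves covered to 81.8% and 71.1%. Among them are 6 miRNA genes, all with mature sequences in RefSeq (GRCm38.p6). They are shown with bases 2 to 8, the seed, in capitals, since the miRNAs of different clusters fall into 2 seed groups that target Hox transcripts, with miR-615 apart.
mmu-miR-10a-5p (Hoxb): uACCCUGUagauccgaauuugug
mmu-miR-10b-5p (Hoxd): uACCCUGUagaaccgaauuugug
mmu-miR-196a-5p (Hoxb and Hoxc): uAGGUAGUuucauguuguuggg
mmu-miR-196b-5p (Hoxa): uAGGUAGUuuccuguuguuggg
Mir10a, Mir10b, Mir196b, Mir196a-2 and Mir615 were covered to 100% by both antibodies. Mir196a-1, in the interval before Hoxb9 at chr11:96126478-96126579, was covered to 0% by both, although Mir196a-2 in Hoxc gives rise to the same mature miRNA.

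The genes outside the clusters were measured in the same way. Of the 24 nearest protein-coding genes outside the Hox family, 3 on each side of a cluster, 4 overlapped a Jarid2 peak and 2 a Jarid2-K116me2 peak, where 16% and 14.2% of all protein-coding genes did. The 2 were the homeobox genes Evx1, 52.6 kb from Hoxa, covered to 100% by both, and Evx2, 8.45 kb from Hoxd, covered to 89.3% and 77.6%. On the other side of the same clusters, Skap2, 150 kb from Hoxa, and Mtx2, 60.7 kb from Hoxd, overlapped no peak of either antibody. That side of Hoxa was not without peaks, since a Jarid2 peak of 3179 bp and a Jarid2-K116me2 peak of 2300 bp lay beyond Hoxa2.

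H3K27me3 libraries differed strongly in the length of their peak lists before any Hox result. Replicate 1 of the ESC gave 3554 peaks in KO, 1478 in WT and 5183 in K116A, whereas replicate 2 gave 9836, 8579 and 9143. EB lists had 10164 and 14125 peaks in KO, 6852 and 8446 in WT, and 6811 and 9866 in K116A. WT ESC replicate 1 stood apart with the shortest list, although per the study it was the most sequenced ESC library. The coverage differences below are given with and without it. Of 9 genes of pluripotent cells measured as a check of the labels, only Esrrb had a peak within 1 kb of its TSS in the ESC, in all 6, while Pou5f1, Nanog, Sox2 and Zfp42 had none in any ESC library. In the EB libraries Klf4 and Esrrb had one in 6 of 6, Pou5f1 and Tdgf1 in 1 of 6, and the other 5 genes in none.

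In ESC, H3K27me3 peaks covered 76.2% and 91.2% of the 4 clusters in the KO replicates 1 and 2. The WT replicates had 37.6% and 89.8%, and the K116A replicates 76.6% and 90.2%. Replicate 2 thus gave almost the same value in the 3 genotypes, and replicate 1 was lower in each. In EB the coverage was 94.3% and 96.3% in KO, 90.1% and 90.1% in WT, and 92.0% and 95.1% in K116A. Hox clusters were therefore largely under H3K27me3 peaks in the Jarid2 -/- cells too, and at both stages.

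**Figure D4:**
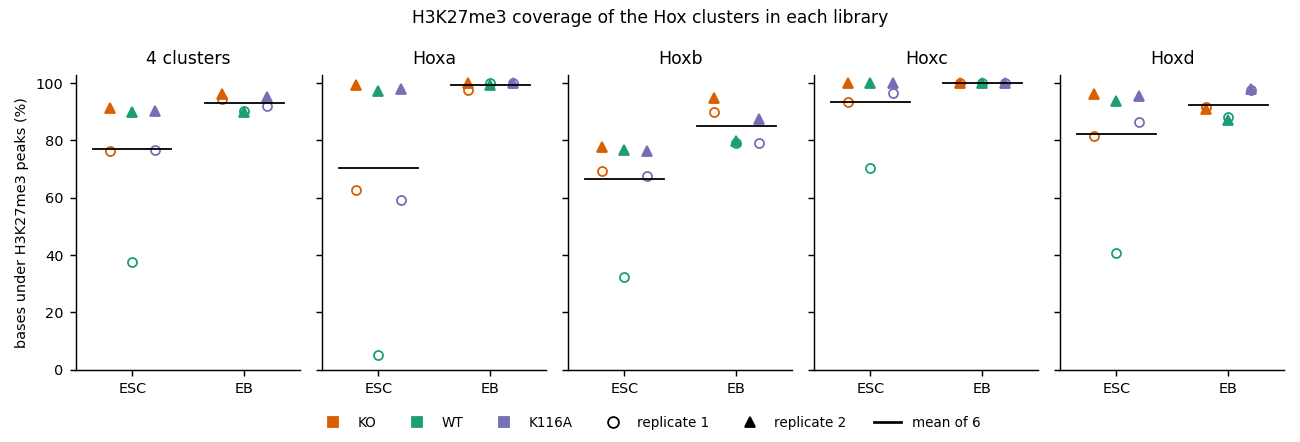
Percent of the bases under H3K27me3 peaks in each of the 12 libraries, for the 4 clusters together and one by one, in ESC and EB; open circles are replicate 1, triangles replicate 2, colours the genotypes and the line the mean of 6 libraries. EB libraries lie at 90.1% to 96.3% over the 4 clusters, and the low ESC points, down to 37.6%, are replicate 1.

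Coverage was higher in EB than in ESC, 93.0% ± 2.64 (SD, n = 6) against 76.9% ± 20.4 (SD, n = 6), a difference of 16.1 points averaged over the genotypes. The exact permutation test of the stage labels within genotype, two-sided with 216 arrangements, gave p = 0.00926, the smallest it allows. The difference came mostly from replicate 1, at 18.1 points in KO, 52.5 in WT and 15.5 in K116A, whereas replicate 2 gave 5.15, 0.277 and 4.97. All 6 pairs thus had the same sign, but of very unequal size. The study called its replicates 2 the samples of higher quality and defined its peaks for comparing ESC with EB from them. With replicate 2 alone the mean was 3.47 points, and without WT ESC replicate 1 it was 7.39 points with p = 0.00926 in the same exact permutation test. Leaving out any 1 EB library raised p in the exact permutation test, to 0.25 without either WT EB replicate, 0.0648 without KO EB replicate 1 or K116A EB replicate 1 and 0.0926 without KO EB replicate 2 or K116A EB replicate 2, with the difference at 15.6 to 16.6 points. With the same number of peaks from each list, the 1478 strongest, the difference was 18.0 points with p = 0.0556 in the exact permutation test, and 9.32 points with p = 0.157 without WT ESC replicate 1. As a share of all H3K27me3 peak bases of a library, the clusters were lower in EB than in ESC, a difference of -1.96 points with p = 0.0741 in the exact permutation test, and of -0.966 points with p = 0.148 without WT ESC replicate 1. Both of these measures were chosen after seeing the data.

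The 4 clusters did not contribute alike. Hoxa ranged from 5.25% to 99.3% in the ESC libraries, with a median of 80.0%, and from 97.7% to 100% in EB. The difference of 29.2 points had an adjusted p of 0.0370 in the exact permutation test (Benjamini-Hochberg over the 4 clusters). It shrank to 1.54 points with replicate 2 alone and to 13.9 without WT ESC replicate 1. Leaving out KO ESC replicate 1 or any 1 EB library took its unadjusted p to between 0.0741 and 0.269, above the threshold of 0.05, in the exact permutation test. In each ESC replicate 1 library Hoxa had the lowest coverage of the 4 clusters, 62.6% in KO, 5.25% in WT and 59.2% in K116A.

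Hoxb was the only cluster in which the ESC and EB libraries did not overlap. It ranged from 32.3% to 77.9% in ESC, with a median of 72.8%, and from 79.1% to 94.8% in EB, with a median of 83.7%. The difference of 18.4 points had an adjusted p of 0.0370 in the exact permutation test. It was 10.5 points with replicate 2 alone and 11.1 points without WT ESC replicate 1. Without WT EB replicate 1 or replicate 2 its unadjusted p was 0.0926 or 0.102 in the exact permutation test. Over the pairs of replicate 2 it was 16.9 points in KO, 3.44 in WT and 11.3 in K116A. The span includes the Jarid2-free stretch of 44890 bp between Hoxb13 and Hoxb9, described below. In replicate 2, H3K27me3 peaks covered 14.3% of that stretch in KO ESC and 80.0% in KO EB. The values were 10.4% and 22.4% in WT, and 9.30% and 51.6% in K116A. The Hoxb difference without this stretch was not tested.

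Hoxc was covered to 100% by a single H3K27me3 peak in all 6 EB libraries and in the 3 ESC replicate 2 libraries, and this peak, of 138466 to 165345 bp, was the widest of its whole list in each of them. The 3 ESC replicate 1 libraries had 93.5% in KO, 70.6% in WT and 96.5% in K116A. Hoxc was thus the most completely covered cluster for H3K27me3, as it was for Jarid2. The EB difference of 6.56 points had an adjusted p of 0.269 in the exact permutation test. Hoxd ranged from 40.8% to 96.1% in ESC and from 87.1% to 98.0% in EB, and its difference of 9.90 points also had an adjusted p of 0.269, turning to -3.14 points with replicate 2 alone. Without WT ESC replicate 1 the differences were 1.66 points in Hoxc and 1.06 in Hoxd.

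The long Jarid2-free stretch between Hoxb13 and Hoxb9 was sparsely covered in ESC and more widely covered in EB. In ESC, H3K27me3 peaks covered 1.35% and 14.3% of its 44890 bp in KO, 0% and 10.4% in WT, and 1.35% and 9.30% in K116A. In EB they covered 61.4% and 80.0% in KO, 22.4% and 22.4% in WT, and 19.2% and 51.6% in K116A. Every EB library was above every ESC library, and both KO EB libraries were above the EB libraries of the other genotypes. The KO EB lists were also the longest. Per the study, the WT libraries had the fewest reads of the EB libraries and K116A EB replicate 2 the most. The parts of list length and depth in this order were not tested. With Hoxb13 left out of the span, which removes this stretch, the EB difference over the 4 clusters was 13.5 points with p = 0.222 in the exact permutation test, and 4.30 points with p = 0.444 without WT ESC replicate 1. Replicate 2 then went from 98.9% in ESC to 97.8% in EB in KO, from 97.9% to 96.8% in WT and from 98.4% to 99.5% in K116A.

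**Figure D5:**
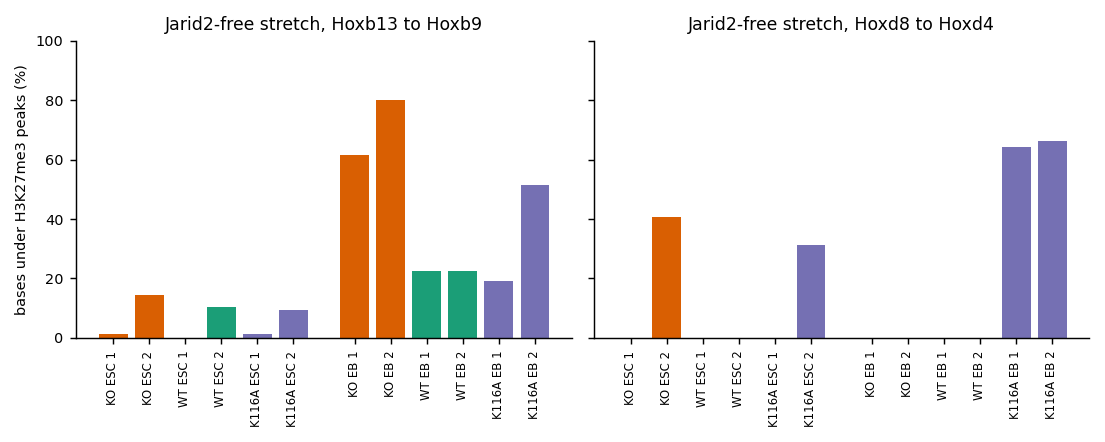
Percent of the bases under H3K27me3 peaks in each library for 2 stretches without a Jarid2 peak in E14, between Hoxb13 and Hoxb9 (44890 bp) and between Hoxd8 and Hoxd4 (5403 bp); colours are the genotypes as in the other plots. EB bars reach 80.0% in the first stretch, and in the second both K116A EB libraries stand at 64.1% and 66.3% while KO and WT EB are at 0%.

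The Jarid2-free stretch between Hoxd8 and Hoxd4 behaved otherwise. It had no H3K27me3 peak in either replicate of WT at either stage, and none in the EB of the KO. In the ESC, KO replicate 2 had 40.8% and K116A replicate 2 had 31.2%, with 0% in both replicates 1. The K116A EB libraries had 64.1% and 66.3%, above all others. The groups have 2 libraries each, so the smallest p for 1 such pair of groups would be above the threshold, and no test was run. A run of 1921 bp (chr2:74557358-74559278), inside this stretch but for its last bases, had no H3K27me3 peak in any of the 12 libraries. It had no Jarid2-K116me2 peak, and Jarid2 over 5.21% of its length, where it ran past the stretch. It had 5.21 CpG per kb against 28.0 over the whole Hoxd span.

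Other Jarid2 gaps were largely under H3K27me3 peaks in the EB and ESC replicate 2 libraries. The gaps of 3078 and 2260 bp before Hoxa4 were at 100% in all 6 EB and the 3 ESC replicate 2 libraries and at 0% in the 3 ESC replicate 1 libraries. The gap of 4850 bp before Hoxb1 was at 100% in 8 of these 9 and at 66.9% in WT EB replicate 1. That of 6822 bp between Hoxd3 and Hoxd1 was at 80.2% and 78.3% in KO EB and at 77.0% in WT EB replicate 1. It was at 100% in the other EB libraries and in the ESC replicate 2 libraries. In the ESC replicate 2 and EB libraries, 98.0% to 100.0% of the bases under Jarid2 in E14 were also under H3K27me3, whereas replicate 1 of the ESC had 87.0% in KO, 44.7% in WT and 87.0% in K116A. Conversely, 84.5% to 90.2% of the H3K27me3-covered bases in those 9 libraries lay under Jarid2 peaks of E14. Of all span bases, H3K27me3 peaks covered 89.8% to 96.3% in those libraries and Jarid2 peaks 81.8%. High shares in both directions thus follow largely from the coverage itself.

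At the level of single members, 38 of 38 had an H3K27me3 peak within 1 kb of the TSS in 10 of the 12 libraries, where far fewer of all protein-coding genes had one. That background was 6.91% and 16.4% in KO ESC replicates 1 and 2, 12.5% in WT ESC replicate 2 and 13.9% in K116A ESC replicate 2. In EB it was 12.1% and 15.4% in KO, 9.87% and 10% in WT, and 11.2% and 14.1% in K116A. K116A ESC replicate 1 had 37, without Hoxa3, against 8.38% of all protein-coding genes. WT ESC replicate 1 had 23, against 1.74% of all protein-coding genes, and 9 of the 15 missing members were of Hoxa, where only Hoxa11 kept a peak. With 5 kb around the gene, 35 members had a peak in that library (3.84% of all protein-coding genes), and Hoxa4, Hoxa5 and Hoxa13 had none. In that library, which had the shortest list, Hoxa was thus also the cluster with the fewest members called. All 10 members of Hoxb but Hoxb13 kept a peak there within 1 kb of the TSS.

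Hoxa13 was the member whose TSS was least often directly under an H3K27me3 peak, in 1 of 6 ESC and 4 of 6 EB libraries. In KO ESC replicate 2, K116A ESC replicate 2, KO EB replicate 1 and WT EB replicate 2, its TSS lay in a break of 1494, 1528, 1496 and 1547 bp between 2 peaks. A break of nearly equal length thus recurred in 3 genotypes and both stages. The promoter of Hoxa13 had the most CpG of the 38, and a link of the break to CpG was not tested. Hoxa5 had a similar break of 1484 bp in KO EB replicate 1, and Hoxa4 of 1300 bp in WT ESC replicate 2. Hoxd4 lay in a break of 3877 bp in WT EB replicate 2. No other member TSS was outside the peaks in an EB or ESC replicate 2 library.

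Between genotypes, no difference passed the test. KO minus WT was 12.6 points over both stages and K116A minus WT 11.6 points, each with p = 0.389 in an exact permutation test of the genotype labels within stage, two-sided, where 36 arrangements allow no p under 0.0556. Both differences rested on WT ESC replicate 1, at 38.6 and 38.9 points in that pair. Without that library they were -0.476 and -1.49 points, with p = 1 in both exact permutation tests. In EB, KO was 4.16 and 6.22 points above WT and K116A 1.91 and 5.04 points above WT in the pairs of replicates 1 and 2. The EB lists of WT were also the shorter ones in 3 of these 4 pairs, and per the study the WT EB libraries had fewer reads in all 4. The parts of list length and depth in these values were not tested.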

How the data were processed

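Of 16 samples, 14 with peak lists were used, and the 2 inputs were not analysed here. Per the labels and methods, the authors aligned single reads to mm9 with Bowtie2 2.1.0, removed duplicates and called peaks per sample against input, with MACS 1.4.2 for Jarid2 and Jarid2-K116me2 and broad MACS2 2.0.10 for H3K27me3, and replicates were not pooled. The deposited lists hold positions and a score. The Jarid2 and Jarid2-K116me2 score is minus log10 of the p-value multiplied by 10, and the scale of the deposited H3K27me3 score is not given in the sources used here, so it served only to rank peaks within a list. Peak lists hold no read depth, so the number of peaks is given for each list. It does not stand for depth, since per the study the library with the shortest list was the most sequenced ESC library.

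Intervals were analysed with numpy 2.4.6 under Python 3.11.15 and plotted with matplotlib 3.10.9, using GENCODE genes and sequence of NCBIM37. All peaks of 20 chromosomes lay within its chromosome lengths. An overlap was at least 1 bp. The TSS was the annotated start nearest upstream of the longest coding sequence. Coverage was compared with exact permutation tests over libraries, within genotype or stage. The interval and permutation functions were tested on simulated data and recovered 11 of 11 known answers. Replicates of a group shared 0 identical peaks. Per the study they are biological duplicates.

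A list of Hox partner genes and a promoter sequence of Hoxc are not reported here. All 38 members could be named, together with the widest peaks, isolated peaks and largest gaps of each cluster. The members and lists were chosen with earlier results of these data known.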

Additional observations from a re-analysis of the deposited data

How the results depend on the processing

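The 38 of 38 members with a Jarid2 and with a Jarid2-K116me2 peak were the same in all 3 alternatives tried (peaks overlapping the gene, peaks within 1 kb, and the stronger 50% of each list). Jarid2 covered 81.0% with 5 kb added to each span, 92.4% without Hoxb13 and 80.0% with the stronger 50% of the list, and Jarid2-K116me2 covered 69.2%, 81.6% and 67.3%. When 50% of both peaks had to overlap, 13 Jarid2 and 13 Jarid2-K116me2 peaks were shared.

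For H3K27me3, the EB minus ESC difference was 13.5 points without Hoxb13, 18.0 with the same number of strongest peaks and -1.96 as a share of all peak bases. On that last measure, KO minus WT was -1.41 and K116A minus WT -1.35. Without WT ESC replicate 1 as well, EB minus ESC was 4.30, 9.32 and -0.966 points. KO minus WT was then -2.26 and K116A minus WT -4.86 with the same number of strongest peaks, -1.21 and -3.04 with the stronger 50% of each list, and 0.0832 and 0.143 as shares. The measures based on strongest peaks and on shares, and these combinations, were chosen after seeing the data, and the cause of the reversals was not tested. Leaving out single libraries or a whole replicate number gave 3.47 to 28.7 points for EB minus ESC, -0.476 to 25.6 for KO minus WT and -1.49 to 24.6 for K116A minus WT. For the clusters it gave 1.54 to 56.9 in Hoxa, 10.5 to 26.3 in Hoxb, 0 to 13.1 in Hoxc and -3.14 to 22.9 in Hoxd. Samples with the same replicate number deviated together among the ESC groups (r of 0.427 to 0.563, 3 pairs of groups), but not among the EB groups (0.00443 to 0.0852) or between ESC and EB of a genotype (-0.0218 to 0.0877), so the numbers were not taken as pairing the samples. With them as a replicate block, the 16.1, 29.2 and 18.4 points of the 4 clusters, Hoxa and Hoxb each had p = 0.0312 in the exact permutation test, the smallest that 6 pairs allow. The genotype differences of 12.6 and 11.6 points had an exact p = 0.125, the smallest that 4 pairs allow, so the block could not have called them, although all 4 pairs of each had 1 sign.

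A stricter false discovery rate and the mean fold enrichment were not run, since the columns they need were not in the files used here. With 1 sample per antibody, the Jarid2 and Jarid2-K116me2 values have no replicate check, and short H3K27me3 lists limit what absence of a peak shows.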
